A study of Rattus norvegicus with 6 samples.

Results

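The mitochondrial genome transcripts described here were all rows of the gene table that lie on the chromosome named MT, 37 of 33589 rows. By the table's own biotypes they comprised 13 protein-coding genes, 2 rRNA genes and 22 tRNA genes. The cells were rat MSCs, mesenchymal stem cells from bone marrow, which are known as precursors of bone, cartilage and fat cells, and had been held for 48 h in a gel named SA in the labels. The soft gel was at 2 kPa and the stiff gel at 18 kPa, and each was profiled here in 3 libraries of polyA RNA. Growth medium was low-glucose with 10% serum in both groups, and no genotype, strain or age of the rats was given. The labels do not say whether replicates came from separate cultures or animals, so the p-values cover only the spread among these libraries, which may be technical.

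Mitochondrial DNA is a small circle that is transcribed from both strands into long precursors. These are cut, largely at the tRNAs that lie between the other genes, into mRNAs, rRNAs and tRNAs, and most of the mRNAs then receive a short polyA tail. All of its coding genes specify core subunits of the respiratory chain and ATP synthase, whose other subunits come from nuclear genes. A higher or lower level in bulk RNA cannot tell more cells, or more mitochondria per cell, from more RNA per mitochondrion.

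Levels are FPKM, in which fragments are divided by gene length and by the reads of the library, which allow genes to be compared per length. Reads recovered from the FPKM came to between 14966354 and 16711527 per library, of which between 358199 and 537477 lay in mitochondrial rows. All 7 mesenchymal markers checked were present at 1 FPKM or more on average, as were all 7 macrophage and leukocyte markers, whose summed level was 222.6 to 224.2 FPKM in soft and 220.3 to 222.0 FPKM in stiff gel. That sum covers opposite differences: by limma Cd68 was lower in stiff gel (-0.53, adjusted p = 0.0246) and Adgre1 higher (0.30, adjusted p = 0.0404), and Tyrobp was lower without overlap of the groups (-0.26, adjusted p = 0.261). Their part in the results was not tested. None of the endothelial or erythroid markers found reached 1 FPKM on average, although the endothelial marker Tie1 was at 1.03 FPKM in soft replicate 1. One library stood apart for the genes described here. Soft replicate 1 was the lowest of the 6 libraries for 11 of the 13 coding genes, so many differences between the gels are given with and without it. Over all 12713 genes that passed the level filter (a mean of at least 1 FPKM), this library was lowest for 25.9% and highest for 25.4%.

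In stiff gel all 13 coding genes had a mean log2 level above that in soft gel, by 0.06 to 0.41 with a median of 0.17, but none passed the test. Both rRNA genes were slightly below their soft level, and 9 of the 22 tRNA rows could be tested, again with no call. The stiff and soft libraries overlapped for each of the 13 coding genes and both rRNA genes. Among all 12713 genes tested with limma, 1.43% passed a Benjamini-Hochberg adjusted p of 0.05, the median difference was 0.0013, and 22.6% had groups that did not overlap. At an unadjusted p under 0.05 the count was 0 of 13 coding genes and 0 of 2 rRNA genes, against 15.4% of all genes tested. Over all genes tested, 50.4% lay above 0. Voom on recovered reads also called 0 of the mitochondrial rows. Without soft replicate 1 the coding genes split into 7 above and 6 below their soft level, with a median of 0.022. With quantile normalization 11 were above 0, with a median of 0.080, and with array weights 8, with a median of 0.025.

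COX1 (ENSRNOG00000034234, MT 5323 to 6867, plus strand), which encodes the catalytic core of complex IV, had the highest level of all genes in the table. It was at 6821, 10125 and 9563 FPKM in soft replicates 1 to 3 and at 9673, 10943 and 10206 FPKM in stiff replicates 1 to 3. Soft replicate 1 lay far below the other 5 libraries, and the remaining soft and stiff libraries interleaved. The limma difference was 0.24 on the log2(FPKM + 1) scale (SE 0.14, 95% interval -0.10 to 0.57, adjusted p = 0.480). It was 0.060 without soft replicate 1. COX2 (MT 7006 to 7689), the subunit that takes electrons from cytochrome c, was at 1954, 2754 and 2611 FPKM in soft and 2415, 2884 and 2758 FPKM in stiff gel. COX3 (MT 8599 to 9382), the third core subunit, was at 3045, 4110.1 and 3939.9 FPKM in soft and 3680.1, 4497 and 4128 FPKM in stiff gel. Both repeated the order seen in COX1: soft replicate 1 was lowest and stiff replicate 2 highest.

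CYTB (MT 14136 to 15278), the cytochrome b of complex III and its only mitochondrially encoded subunit, was at 2379.9, 3089.9 and 3029 FPKM in soft and 2889.7, 3306 and 3137 FPKM in stiff gel. It had the smallest spread within groups of the 13 coding genes, an SD of 0.16 on the log2 scale. ATP6 (MT 7919 to 8599), a membrane subunit of ATP synthase that forms part of its proton path, was at 2270.5, 3469.8 and 3399.9 FPKM in soft and 3062, 3526 and 3329 FPKM in stiff gel. Its difference was 0.14 (95% interval -0.23 to 0.51, adjusted p = 0.727 by limma) and fell to -0.058 without soft replicate 1. COX1, COX3, ATP6, CYTB and COX2 were 5 of the 20 highest genes in the table.

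**Figure D1:**
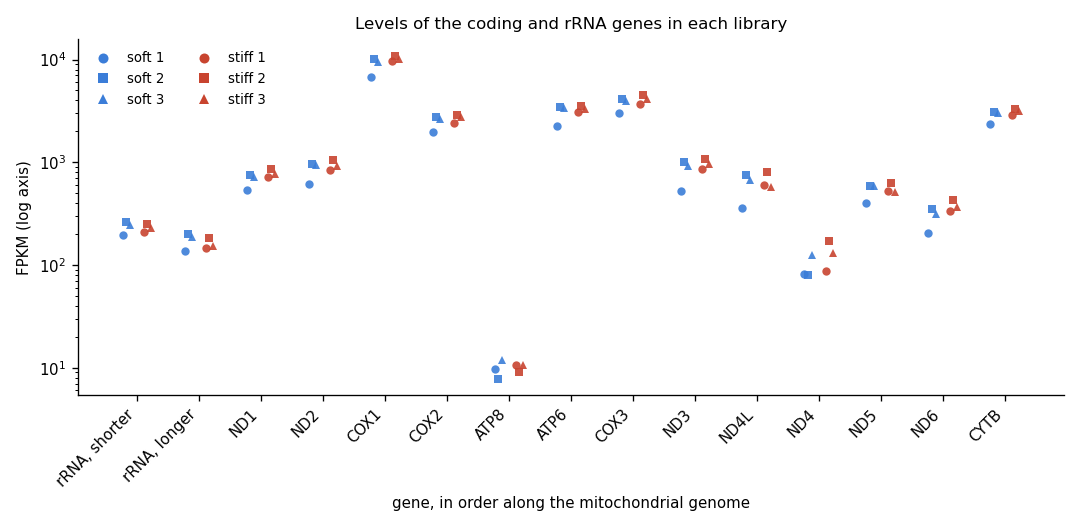
FPKM on a log axis of the 13 coding and 2 rRNA genes in each of 6 libraries, in order along the mitochondrial genome; blue marks soft and red marks stiff libraries, and the symbol gives the replicate. COX1 lies highest at up to 10943 FPKM and ATP8 lowest at under 12 FPKM, and soft replicate 1 (blue circles) lies lowest in most genes.

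The complex I subunits lay lower. They belong to the membrane arm of the NADH dehydrogenase, the entry point of electrons from NADH. ND1 (MT 2740 to 3694) was at 538, 756 and 723 FPKM in soft and 711, 852 and 772 FPKM in stiff gel. ND2 (MT 3904 to 4942) was at 618, 967 and 947 FPKM and at 841, 1046 and 913 FPKM. ND3 (MT 9451 to 9798) was at 526, 1008 and 925 FPKM and at 859, 1087 and 964 FPKM. In these 3 genes soft replicate 1 again lay below all other libraries, and the rest overlapped. ND5 (MT 11736 to 13565) was at 398, 592 and 584 FPKM in soft and 529, 629 and 511 FPKM in stiff gel. ND4L (MT 9870 to 10166) was at 361, 757 and 672 FPKM and at 606, 809 and 576 FPKM, and had the largest spread within groups, an SD of 0.45. Without soft replicate 1, ND4L went from 0.21 above to 0.12 below its soft level on the log2 scale.

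ND4 and ND6 differed by more than the other coding genes, by 0.41 and 0.40 on the log2 scale. ND6 (ENSRNOG00000029042, MT 13543 to 14061) is the one coding gene on the minus strand of the table. It was at 203, 349.9 and 315 FPKM in soft and 333, 425 and 366 FPKM in stiff gel. Soft replicate 2 lay between stiff replicates 1 and 3, so the groups overlapped. The difference was 0.40 (SE 0.20, 95% interval -0.06 to 0.86, adjusted p = 0.384 by limma), the smallest adjusted p among the coding genes, and 0.17 without soft replicate 1. Whether the counting used strand is not given, so ND6 reads and reads of the opposite strand there cannot be told apart. ND4 (MT 10160 to 11537) was at 82.2, 79.8 and 125.0 FPKM in soft and 87.4, 170.9 and 130.0 FPKM in stiff gel. Here soft replicate 2 was lowest, and stiff replicate 1 lay among the soft libraries. Its difference of 0.41 had a wide interval (-0.20 to 1.02, adjusted p = 0.501 by limma), and its SD within groups of 0.43 was next to that of ND4L. It was 0.32 without soft replicate 1, 0.62 without soft replicate 3, 0.67 without stiff replicate 1 and 0.18 without stiff replicate 2.

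ATP8 (MT 7758 to 7961), the small ATP synthase subunit beside ATP6, was listed at 9.64, 7.78 and 11.7 FPKM in soft and 10.5, 9.10 and 10.5 FPKM in stiff gel. These values rest on 26 to 39 reads per library. The ATP8 level was between 0.224% and 0.424% of that of ATP6, although the 2 rows share 43 bases and are known to be carried by 1 mRNA. ND4L and ND4, the other gene pair that is known to share an mRNA, also differed. ND4L, whose row shares 7 bases with ND4, was at 4.39 to 9.49 times the ND4 level. How reads that touch overlapping rows or match nuclear copies of mitochondrial DNA were counted is not given, so ATP8 and ND4 are uncertain. The ATP8 row is 204 bases long and the ND4 row 1378 bases, so the shared bases are a larger part of ATP8. How far the counting set the levels of ATP8 and ND4 was not tested.

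By level per length the 13 coding genes ran COX1, COX3, ATP6, CYTB, COX2, ND3, ND2, ND1, ND4L, ND5, ND6, ND4 and ATP8. COX1 was 2.24 to 2.63 times COX3 in each library, and COX2 was 2.65 to 3.71 times ND3. Neighbours whose order changed between libraries were ATP6 and CYTB (ATP6 higher in 5 of 6 libraries), ND3 and ND2 (4 of 6), ND1 and ND4L (5 of 6), and ND4L and ND5 (5 of 6). All other neighbours kept their order in 6 of 6 libraries. Across the 12 plus-strand genes, level had a Spearman correlation of -0.19 with the start position and 0.15 with gene length. These are descriptions over genes that share libraries and precursors.

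The coding genes moved together over the 6 libraries. Pearson correlations of log2(FPKM + 1) between pairs of the 13 genes had a median of 0.95, as a description over 6 libraries in which soft replicate 1 carries much of the range. Against the mean of the other 12 genes, 11 genes had r between 0.92 and 0.99, while ND4 had 0.62 and ATP8 -0.090. Soft replicate 1 was at 0.504 (ND4L) to 0.987 (ATP8) times the mean of the other soft libraries, with a median of 0.693 over the coding genes. Stiff replicate 2 was the highest library for 12 of 13. The SD within groups had a median of 0.25 over the 13 coding genes, against 0.075 over 687 other genes at 100 FPKM or more. All 13 lay above that median, but for ATP8 the comparison is not at a like level. Its mean was 9.89 FPKM, from 26 to 39 reads per library, where counting error adds to the spread. These SDs include soft replicate 1, and no SD without that library was computed. For COX1, as an example, the limma SE was 0.14 with all 6 libraries and 0.067 without soft replicate 1. How much of the wider spread of the coding genes comes from that library was not tested.

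**Figure D2:**
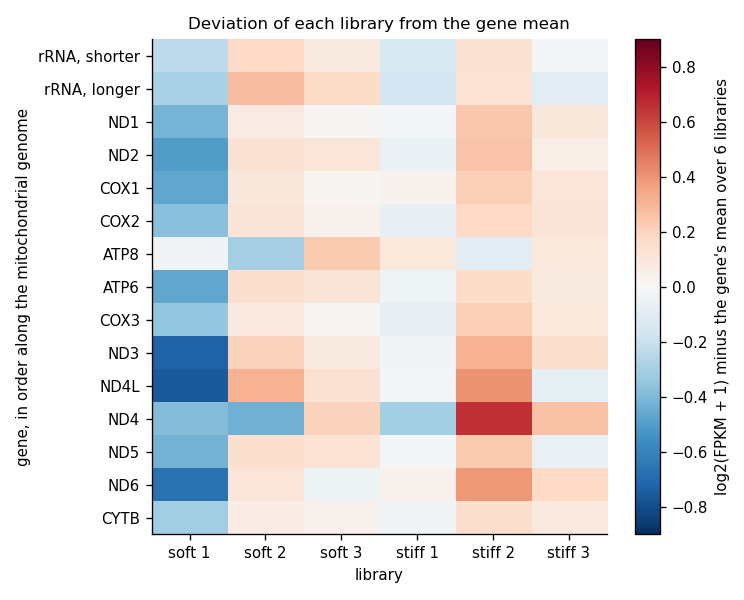
Colour gives log2(FPKM + 1) in each library minus the gene's mean over the 6 libraries, for 13 coding and 2 rRNA genes in genome order. The column of soft replicate 1 is blue for nearly all genes and that of stiff replicate 2 mostly red, while ATP8 and ND4 follow other patterns.

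The 5 genes outside the mitochondrial genome whose level was most like the summed coding level were Slc35a1 (r = 0.996), Bnip3 (0.996), Nptn (0.995), Psma1 (0.995) and Yipf4 (0.994), by Pearson correlation over 6 libraries among 6341 genes at 10 FPKM or more. Bnip3, which encodes a protein of the outer mitochondrial membrane, was at 123.5, 152.3 and 148.8 FPKM in soft and 146.7, 156.5 and 152.3 FPKM in stiff gel. Like Slc35a1, Nptn, Psma1 and Yipf4, it had its lowest value in soft replicate 1. The 5 genes were picked as the highest of 6341 correlations, so their r values are no test of a link.

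The share of gene reads in mitochondrial rows was 2.15%, 3.13% and 2.99% in soft and 2.85%, 3.33% and 3.08% in stiff gel. The 95% Wilson intervals, which cover counting error only, are narrow at this depth (2.14% to 2.15% in soft replicate 1 and 3.32% to 3.33% in stiff replicate 2). The groups overlapped, and the difference of 0.327 percentage points gave p = 0.5 in an exact two-sided permutation test, in which 3 against 3 libraries cannot go below 0.1. Without soft replicate 1 the difference was 0.022 points. Coding genes held 98.1% to 98.4% of these reads, rRNA genes 1.51% to 1.88% and tRNA rows 0.0413% to 0.0570%.

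The rRNA genes build the ribosome inside mitochondria and, per length, were at levels well under those of most coding genes in these polyA libraries. The shorter one (958 bases, MT 68 to 1025) was at 196.1, 262.0 and 244.4 FPKM in soft and 209.8, 252.6 and 229.9 FPKM in stiff gel. The longer one (1571 bases, MT 1094 to 2664) was at 135.8, 201.8 and 186.6 FPKM and at 147.9, 181.5 and 154.7 FPKM. Both spread widely within each group, and the stiff values fell inside the soft range. The limma differences were -0.014 (95% interval -0.29 to 0.26, adjusted p = 0.973) and -0.099 (-0.45 to 0.25, adjusted p = 0.806).

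**Figure D3:**
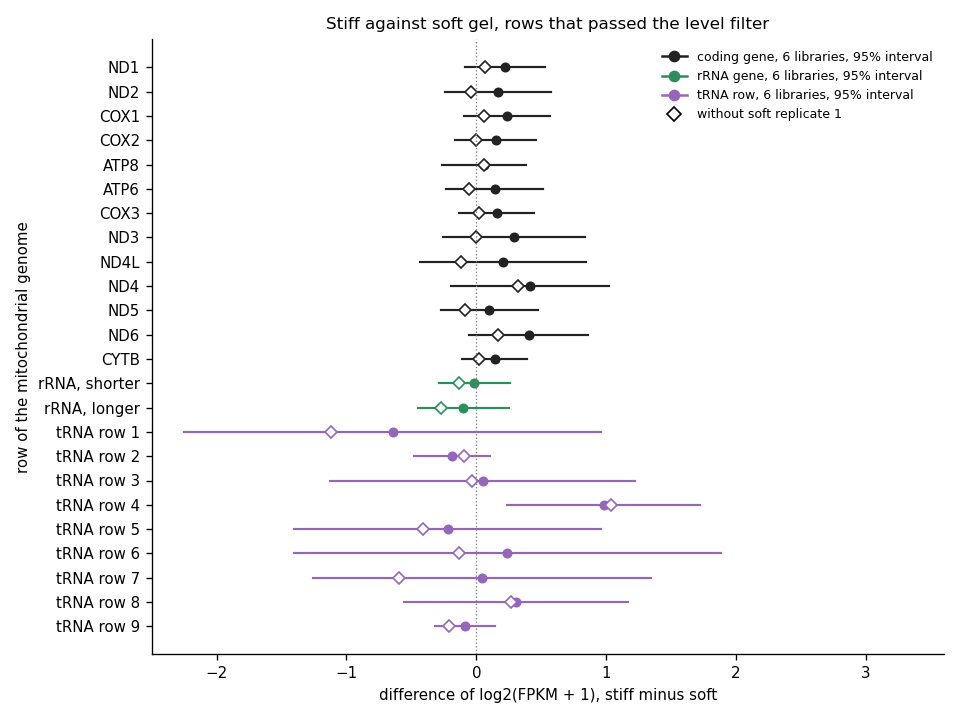
Difference of log2(FPKM + 1), stiff minus soft, with its 95% limma interval (filled circles, 6 libraries) and the same without soft replicate 1 (open diamonds), for 13 coding genes, 2 rRNA genes and the 9 tRNA rows that passed the filter, numbered in genome order. All coding intervals include 0, and the diamonds of the coding genes lie nearer to 0 or beyond it except that of ATP8.

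Inside each library, the ratios between transcript classes did not overlap between the gels, whereas the levels of the coding and rRNA genes did. The summed level of the rRNA genes was 1.73%, 1.65% and 1.61% of the summed coding level in soft and 1.39%, 1.44% and 1.38% in stiff gel. Every soft library was above every stiff one, soft replicate 1 included, and the log2 difference was -0.24 (soft SD 0.054, stiff SD 0.030, n = 3 per group). The exact two-sided permutation p was 0.1, the smallest that 3 against 3 libraries can give. The summed level of the tRNA rows was also lower against the coding genes in stiff gel, by -0.26 (soft SD 0.15, stiff SD 0.019), again without overlap and with exact permutation p = 0.1. Without soft replicate 1 the differences were -0.21 for rRNA and -0.18 for tRNA, the smallest with any 1 library left out. The tRNA ratio rests on 176 to 241 tRNA reads per library. Both ratios, and that of ND6 below, come from polyA libraries. How well each class of RNA was captured in each library is not given, and its part in the ratios was not tested.

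ND6 went the other way. Its level was 1.07%, 1.26% and 1.19% of the summed level of the other 12 coding genes in soft and 1.31%, 1.43% and 1.34% in stiff gel. All stiff libraries lay above all soft ones, with a log2 difference of 0.22 (soft SD 0.12, stiff SD 0.064, n = 3 per group, exact permutation p = 0.1). The difference was 0.15 without soft replicate 1. Against ND5, its neighbour on the opposite strand with which it shares 23 bases, ND6 stood at 51.1%, 59.1% and 53.9% in soft and 63.0%, 67.6% and 71.7% in stiff gel. ND6 over CYTB was likewise higher in stiff gel without overlap, and COX2 over COX1 lower (25.0% to 27.0% in stiff against 27.2% to 28.7% in soft gel). Of the 8 planned ratios, between summed levels or of ND6 to such a sum, 3 had no overlap. With 5 ratios between gene pairs, which were not planned beforehand, 6 of 13 had no overlap. Among single genes 22.6% had no overlap, but that is a share of levels and no background for ratios within a library. Each of the 6 had an exact permutation p of 0.1, and 0.217 after Benjamini-Hochberg adjustment over the 13. The 6 are not independent, since 3 contain ND6. The rRNA, tRNA and ND6 ratios share coding genes in the denominator, and COX1 alone held 51.6% of the coding reads on average. With COX1 left out of that sum, an alternative added after seeing the data, the differences were -0.22 for rRNA, -0.24 for tRNA and 0.24 for ND6.

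**Figure D4:**
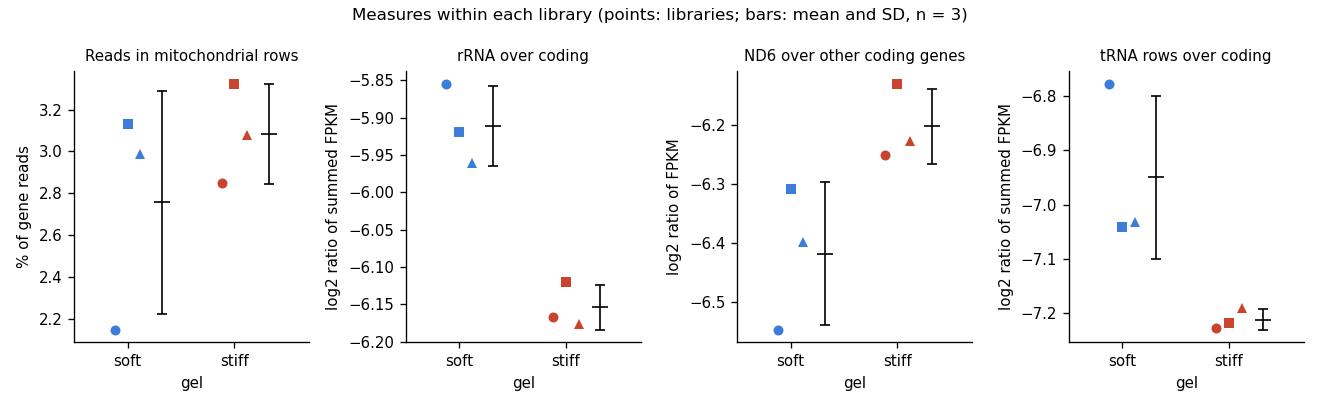
Per library: percent of gene reads in mitochondrial rows, and log2 ratios of rRNA over coding, ND6 over the other coding genes and tRNA rows over coding (circle, square and triangle are replicates 1 to 3; bars give the mean and SD, n = 3; the axes do not start at 0). The read shares of the gels overlap, whereas each of the other measures separates soft from stiff.

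Within the coding reads, COX1 took 50.4%, 51.6% and 50.9% in soft and 53.1%, 51.7% and 52.1% in stiff gel. COX1, CYTB and COX3 together held 74.3% of coding reads on average. The share of COX1 was 1.35 percentage points higher in stiff gel (soft SD 0.614, stiff SD 0.704) and that of ND6 0.084 points higher. These were the 2 of 13 shares in which the groups did not overlap. Of all genes tested, 22.6% had levels without overlap, although levels are another measure. The ND6 share is close to the ND6 ratio given above and is no separate result. For the COX1 and ND6 shares the exact permutation p was 0.1, and 0.650 after Benjamini-Hochberg adjustment over the 13 genes. The gap between soft replicate 2 and stiff replicate 2 in COX1 was small beside the spread within either group.

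The tRNA rows were sparse. Of 22 rows, 9 had no read in any library, 4 had reads but a mean between 0.140 and 0.893 FPKM, and 9 passed the filter. For a row of 68 bases, 3 reads correspond to 2.63 to 2.96 FPKM, the limit that a count of 0 allows. All tRNA rows together had 1298 reads, and 81.2% of them fell in 2 rows. The table gives no tRNA names, so the rows are given by position. The row at MT 15348 to 15415 (minus strand) was at 97.2, 123.0 and 127.4 FPKM in soft and 109.6, 109.2 and 106.3 FPKM in stiff gel. Its stiff values lay inside the soft range (difference -0.086, adjusted p = 0.737 by limma). The difference was -0.21 without soft replicate 1, -0.039 without soft replicate 2 and -0.013 without soft replicate 3. The row at MT 5081 to 5152 (minus strand) was at 53.8, 44.1 and 44.4 FPKM and at 40.1, 36.1 and 49.0 FPKM, with overlap and a difference of -0.19 (adjusted p = 0.524 by limma). It was -0.094 without soft replicate 1, -0.090 without stiff replicate 2 and -0.30 without stiff replicate 3.

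Minus-strand rows held 92.7% of all tRNA reads, and 5 of 8 minus-strand rows passed the filter against 4 of 14 plus-strand rows. As for ND6, reads from either strand cannot be told apart there. One tRNA row had an unadjusted p under 0.05 and groups that did not overlap, at MT 5256 to 5321 (minus strand), just before COX1. It rests on 3, 3 and 2 reads in soft and 3, 10 and 7 reads in stiff gel, so soft replicates 1 and 2 and stiff replicate 1 differ only through the scaling. The difference was 0.98 (95% interval 0.24 to 1.72, adjusted p = 0.213 by limma). The other 6 tested tRNA rows had between 0 and 29 reads per library, overlapping groups and differences from -0.64 to 0.31.

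The summed level of the nuclear genes for subunits of the same complexes was not lowest in soft replicate 1. Over 69 genes it was 6399, 6217 and 6259 FPKM in soft and 6621, 6376 and 7155 FPKM in stiff gel. Without Ndufa1, which was nearly without reads in soft replicates 2 and 3, the soft sums were 6286, 6216 and 6258 FPKM. Gene by gene, soft replicate 1 was the lowest library for 23 of the 68 tested (33.8%), against 25.9% of all genes tested. Over 6 libraries this sum had a correlation of 0.084 with the summed coding level, as a description. The mitochondrial genes stood at 3.002, 4.51 and 4.29 times the nuclear sum in soft and at 3.88, 4.73 and 3.89 times in stiff gel. The groups overlapped, with a log2 difference of 0.099 (exact permutation p = 0.8), which became -0.085 without soft replicate 1.

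By complex, the summed level of the mitochondrial genes over that of the nuclear ones was 1.36 to 2.52 times in complex I (7 against 36 genes), 3.66 to 5.44 times in complex III (1 against 9), 6.69 to 10.6 times in complex IV (3 against 10) and 1.15 to 1.76 times in complex V (2 against 14). These sums run over unequal gene numbers. Per gene, the mean mitochondrial over the mean nuclear level in soft gel was 10.3 in complex I, 41.6 in complex III, 28.0 in complex IV and 10.8 in complex V. In all 4 complexes soft replicate 1 had the lowest ratio, the groups overlapped, and the exact permutation p was between 0.6 and 0.9. Of 68 nuclear subunit genes tested with limma none passed (8 at an unadjusted p under 0.05, or 11.8%, against 15.4% of all genes). Of them 62 lay above 0, against 50.4% of all genes, and the median was 0.081. With each library scaled to equal FPKM sums, 48 lay above 0 and the median was 0.032. The median of all genes tested was -0.042 in that fit, against 0.0013 in the main fit. The smallest p-values belonged to Ndufa3 (-0.24, adjusted p = 0.134), Ndufa7 (0.17, adjusted p = 0.190), Atp5f1e (0.21, adjusted p = 0.208) and Ndufa1 (3.94, adjusted p = 0.257), the first pair and Ndufa1 being accessory subunits of complex I and Atp5f1e a subunit of the ATP synthase rotor stalk.

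**Figure D5:**
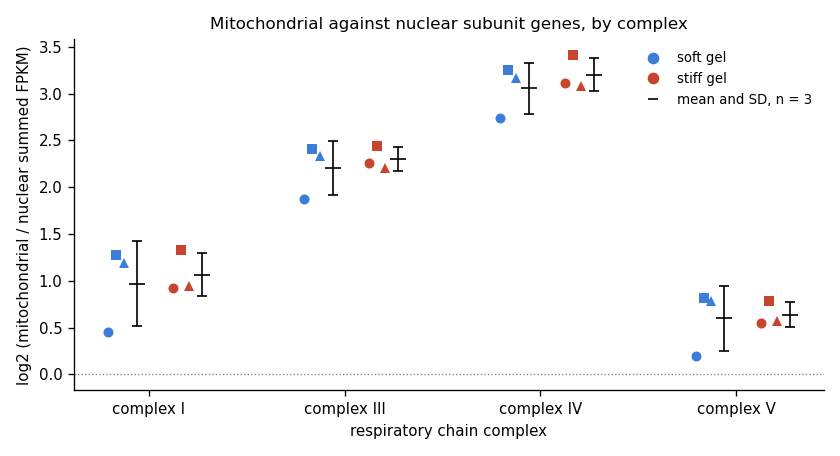
Log2 of the summed FPKM of mitochondrial genes over that of nuclear subunit genes, by respiratory chain complex, in each library (circle, square and triangle are replicates 1 to 3; bars give the mean and SD, n = 3). The sums run over unequal numbers of genes, so the height of a ratio is not per gene. Soft replicate 1 is lowest in each complex.

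The nuclear genes listed for mitochondrial gene expression did not pass the test either. The list covers transcription, processing, stability and translation of mitochondrial RNA, replication and upkeep of mitochondrial DNA, and nuclear regulators. Of 59 listed genes found, 56 were tested. Of these, 32 lay above 0 and 24 below, while 50.4% of all genes tested lay above 0. By limma 0 were called, against 1.43% of all genes, and 2 had an unadjusted p under 0.05, against 15.4%. Their median difference was 0.029. The median was -0.014 at equal FPKM sums, -0.010 without soft replicate 1 and -0.011 with array weights. Over all genes tested the medians of those fits were -0.042, -0.0019 and -0.00085. Tefm, the mitochondrial transcription elongation factor, was at 3.13, 4.18 and 4.57 FPKM in soft and 5.62, 4.56 and 5.72 FPKM in stiff gel (0.35, adjusted p = 0.288 by limma, and 0.22 without soft replicate 1). Stiff replicate 2 and soft replicate 3 were at nearly the same level, so the groups overlapped. Polg, the catalytic subunit of the mitochondrial DNA polymerase, was at 15.3, 13.1 and 14.1 FPKM and at 12.4, 12.8 and 12.2 FPKM (-0.17, adjusted p = 0.314). Ssbp1, which binds single-stranded mitochondrial DNA, differed by 0.18 (adjusted p = 0.382 by limma, and 0.096 without stiff replicate 1) and Mterf4, a member of the MTERF family needed for mitochondrial ribosome assembly, by -0.21 (adjusted p = 0.399, and -0.13 without soft replicate 3). Tfam, the DNA-packaging transcription factor, named here for its role and not by the rule for named genes, was at 14.1, 16.4 and 16.5 FPKM in soft and 16.7, 17.8 and 14.5 FPKM in stiff gel (0.056, adjusted p = 0.835 by limma).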

How the data were processed

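PolyA RNA of 3 soft and 3 stiff libraries was analysed, although the design text speaks of quadruplicates. The authors deposited FPKM per gene and library. Bowtie 0.12.9, Cufflinks 2.1.1, HTSeq and mouse builds are named in the submitters' processing notes, whereas the table carries rat identifiers. The genome build, strand setting and handling of reads with several matches were not given in the sources used here. Coordinates are the table's own. Reads were recovered from FPKM times length, as 100% of values were whole within 0.0001.

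Rows with a mean of at least 1 FPKM were fitted together with limma 3.58.1 in R 4.3.3 on log2(FPKM + 1), with a single term for the gel, a variance trend with level and two-sided tests, adjusted by Benjamini-Hochberg with a threshold of 0.05. This scale understates changes of low genes. The fit was tested on simulated data. Read shares and ratios were compared by exact permutation. No libraries of a group agreed within sampling noise (chi-square per degree of freedom of 3.57 or more).

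Named were all coding and rRNA rows, tRNA rows over the filter, and for 2 nuclear lists (70 respiratory chain subunits, 69 found; 62 genes of mitochondrial gene expression, 59 found) up to 4 called members or, with none, the 4 of smallest p; and the 5 genes most like the coding sum. The members and lists were chosen with earlier results of these data known. The reference tables held no mitochondrial gene, so no sequence is printed. Alternatives to the pseudocount, filter, scaling, variance model and weights were tried, and each library was left out in turn.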

Additional observations from a re-analysis of the deposited data

How the results depend on the processing

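No mitochondrial row was called under any of the 16 alternatives to the limma fit, and the rRNA, tRNA and ND6 ratios and the shares of COX1 and ND6 kept their direction in all of theirs. The levels spread between libraries. Soft replicate 1 was lowest for 11 of the 13 coding genes, and ATP8 and the tRNA rows rest on few reads. Without soft replicate 1 the median difference of the coding genes fell from 0.17 to 0.022. The smallest adjusted p of a coding gene was then 0.505 by limma, against 0.384 with all 6 libraries. With 1 library left out, the differences ranged from -0.058 to 0.25 for ATP6, -0.0019 to 0.25 for COX2, -0.00049 to 0.47 for ND3, -0.041 to 0.28 for ND2, -0.12 to 0.41 for ND4L, -0.086 to 0.20 for ND5 and -0.078 to 0.19 for ATP8; of those that kept their sign, 0.060 to 0.35 for COX1, 0.023 to 0.24 for COX3, 0.022 to 0.21 for CYTB, 0.071 to 0.31 for ND1 and 0.17 to 0.56 for ND6, each lowest without soft replicate 1. The tRNA row starting at MT 9800 ranged from 0.080 without soft replicate 2 to 0.69 without stiff replicate 3. They ranged from -0.14 to 0.072 for the shorter and -0.27 to 0.014 for the longer rRNA gene. For the tRNA rows that changed sign they ranged from -1.28 to 0.079 (start MT 2665), -0.30 to 0.53 (5185), -0.79 to 0.31 (6865), -0.27 to 0.97 (6937) and -0.59 to 0.54 (7693). The ratio of mitochondrial to nuclear subunits ranged from -0.085 to 0.21 in all, -0.16 to 0.25 in complex I, -0.065 to 0.20 in complex III, -0.0082 to 0.25 in complex IV and -0.16 to 0.14 in complex V, where the difference of mean log2 levels gave -0.094. With array weights the differences were -0.039 for ATP6, -0.033 for ND2, -0.055 for ND4L, -0.070 for ND5, -0.062 for ATP8 and -0.31 and -0.44 for the tRNA rows at 7693 and 6937. Quantile normalization gave -0.0078 for ND5 and 0 for COX1, which is the highest gene of every library and is set equal by that method. Among nuclear subunits 1 gene was called higher and 1 lower with array weights, and 1 higher, ranging from 0 to 1 over the fits that left out 1 library. The causes were not tested.

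The replicate number as a block left 0 calls among the mitochondrial rows, with 0.152 as the smallest adjusted p of a coding gene by limma. In that fit 5 of 13 coding genes had an unadjusted p under 0.05. The share over all genes was not computed for that fit, so this count has no background. The rRNA ratio was at -0.24 with the block. Over all genes there were 78 higher and 27 lower calls, against 128 and 54 without the block. Same-numbered libraries had deviations correlated at 0.055, 0.12 and -0.078, and soft replicate 1 correlated best with stiff replicate 3, so the numbers were not taken to pair the libraries.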

Other observations

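Ndufa1, which encodes a small accessory subunit of complex I, was at 113.0, 0.573 and 1.73 FPKM in soft replicates 1 to 3 and at 137.1, 115.9 and 108.5 FPKM in stiff replicates 1 to 3. Soft replicates 2 and 3 were nearly without reads of a gene that the other 4 libraries held at over 100 FPKM, and soft replicate 1, the library lowest in most mitochondrial transcripts, was not among them. With all 6 libraries Ndufa1 did not pass limma's test (3.94, adjusted p = 0.257). It passed without soft replicate 1 (5.87, adjusted p = 0.00107), but that fit leaves out the only soft library at the stiff level. The call is therefore no separate evidence of a difference. Atp5pb, a subunit of the ATP synthase stator, also varied several-fold, at 0.924, 1.27 and 0.745 FPKM in soft and 8.62, 4.02 and 1.13 FPKM in stiff gel; it was singled out after its values were seen. How reads of near-identical copies were counted is not given, so both are uncertain.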
